A study of Rattus norvegicus with 2 samples.

Results

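The NMDA receptor subunit genes are the 7 rat genes Grin1, Grin2a, Grin2b, Grin2c, Grin2d, Grin3a and Grin3b. They were taken as every rat probe whose gene name in the array files is one of these symbols, which gave 9 probes of 1 spot each. All 7 genes were well above background on both arrays, among 15562 genes with such a probe and a symbol. RNA came from the nucleus tractus solitarius (NTS), the medullary cell group where baroreceptor and other visceral sensory fibres end. The female group was 1 pool of 5 female Wistar Kyoto (WKY) rats, and the male group was 1 pool of 5 male WKY rats. All rats were 9 weeks old, fed freely, and each rat gave 100 ng of total RNA to its pool. Each pool was labelled with Cy3 and hybridised to 1 single-colour array, so the differences between rats within a sex are averaged and cannot be measured. With 1 array per sex there was no replicate and no test was made.

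NMDA receptors are glutamate-gated cation channels that open when glutamate and glycine or D-serine are bound together and depolarisation has removed magnesium from the pore. Each channel holds obligatory GluN1 subunits, encoded by Grin1, which bind glycine or D-serine. The partners are GluN2 subunits, encoded by Grin2a to Grin2d, which bind glutamate and set the kinetics and the strength of the magnesium block, or GluN3 subunits, encoded by Grin3a and Grin3b, which bind glycine and lower calcium entry. In the NTS, glutamate is the main transmitter of visceral afferents, and NMDA receptors act beside AMPA receptors at those synapses.

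The probes set what each array could see, and 3 of the 9 are shown: those of Grin2d and Grin2b, which have 2 of the larger differences, and the Grin1 probe whose match to the genome is split. Each is 60 bases long, is written 5′ to 3′ as in the array files, and has capitals on its longest unbroken run of G and C, for Grin2b on the first of 3 runs of equal length.
Grin1: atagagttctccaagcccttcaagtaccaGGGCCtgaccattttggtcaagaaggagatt
Grin2b: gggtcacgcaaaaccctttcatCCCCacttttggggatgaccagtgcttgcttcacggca
Grin2d: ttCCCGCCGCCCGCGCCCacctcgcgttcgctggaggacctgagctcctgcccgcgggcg
The Grin2d probe stands apart in base composition, with 78.3% G and C and a run of 16, against 46.7% for this Grin1 probe, 45.0% for Grin2a and 55.0% for Grin2b. The other 5 probes, a second one for Grin1, 2 for Grin3a and 1 each for Grin2c and Grin3b, held between 35.0% and 55.0%. The longest stretch that any of the 9 shares with a probe of another gene, on either strand, was 16 bases. Matches to transcripts themselves were not searched, so binding of other RNA to a probe was not tested.

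In rn4, the rat build named in the array file headers, the Grin1 probe shown lies on the minus strand at chr3:3460217-3460350. That span of 134 bases is 74 longer than the probe, so its match is split in the genome. The second Grin1 probe lies at chr3:3454949-3455008, the Grin2b probe at chr4:172722609-172722668 and the Grin2d probe at chr1:96309508-96309567, all on the minus strand. The Grin2c probe lies on the minus strand at chr10:105323397-105323456. The Grin3a probes lie at chr5:66406453-66406512 and chr5:66406544-66406603 and the Grin3b probe at chr7:11244019-11244078, all on the minus strand. The array files tie each probe to a transcript of its gene; which exon or untranslated region it falls in was not analysed here.

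The arrays themselves were alike in overall signal. Spots well above background made up 87.9% of the female array and 85.5% of the male array, out of 42877 rat spots each, and 0 were saturated. The 75th percentile of the processed signal, against which each level below is set on the log2 scale, was 3380 for the female array and 3441 for the male array. Differences are female minus male, so a negative one is lower in the female pool. Scaling by spike-in RNA instead adds 0.67 to every difference, and with it all 7 subunit differences are positive; directions below are those relative to the 75th percentile. The median over all 15562 genes was -0.014. As a check of the sex labels, the X-linked genes Eif2s3, Kdm5c and Ddx3x, which are known to escape X inactivation, differed by 0.65, 0.57 and 0.39.

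Grin1, the gene of the obligatory subunit, was lower in the female pool on both of its probes, though not with spike-in scaling. The probe shown above gave a processed signal of 338 for the female pool, against 412 for the male pool, a difference of -0.26. The second probe gave 363 for the female pool, against 436 for the male pool, a difference of -0.24. The probes lie in separate parts of the transcript and differ from each other by less than the error of a spot at this brightness, 0.089. That error is taken from probes printed many times on each array, as the root mean square of the SDs of their spot differences. It covers spot-to-spot error only, not that of labelling or of the rats. The median of both probes was -0.25, a signal 1.19-fold lower in the female pool.

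**Figure D1:**
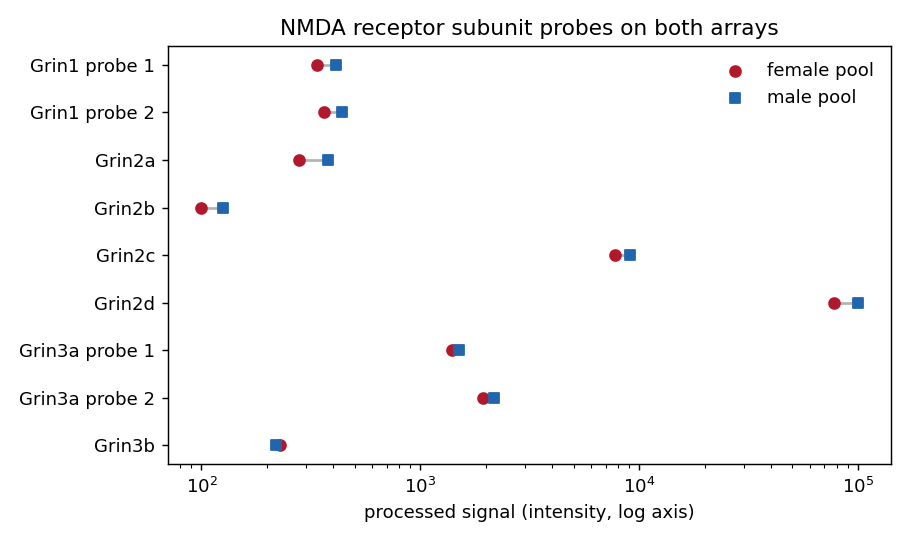
Processed signal of each of the 9 NMDA receptor subunit probes (horizontal axis, intensity on a log scale) in the female pool (circles) and the male pool (squares), 1 spot per array. The female value lies left of the male value for 8 probes and right of it for Grin3b; signals of different probes depend on their sequences and are not ranked.

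All 4 GluN2 genes were lower in the female pool relative to the 75th percentile, and higher with spike-in scaling. Grin2a, whose product gives receptors fast decay and a strong magnesium block, had a signal of 278 for the female pool, against 377 for the male pool. The difference was -0.41, or 1.33-fold lower in the female pool, and 4.64 times the spot error of 0.089. It was the largest of the 7 relative to the 75th percentile, but Grin2d was farther from 0 with normexp, and with spike-in scaling the Grin2a difference was the smallest, at 0.26. Grin2b, whose product gives slower decay and the site for ifenprodil, had a signal of 99.3 for the female pool, against 124.8 for the male pool. Its difference was -0.30, or 2.02 times the spot error of 0.15 that applies to its dimmer class. Normexp background correction, another way to remove the background of dim spots, gave -0.14 for Grin2b.

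The other GluN2 pair encodes subunits with a weaker magnesium block. Grin2d, best known from the brainstem, diencephalon and spinal cord and from early development, had a signal of 77149 for the female pool, against 99224 for the male pool. Its difference of -0.34, or 1.26-fold lower in the female pool, was 4.88 times the spot error of 0.069 for bright probes. Grin2c, best known from cerebellar granule cells and from astrocytes, had a signal of 7721 for the female pool, against 9041 for the male pool. Its difference of -0.20 was 2.92 times that error. These are bulk measurements of a dissected block, in which fewer cells of a type and less RNA per cell cannot be told apart.

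The GluN3 genes differed least relative to the 75th percentile, and most with spike-in scaling, at 0.56 for Grin3a and 0.76 for Grin3b. The probes of Grin3a, whose product is known for delaying synapse maturation, gave signals of 1386 and 1934 for the female pool, against 1499 and 2173 for the male pool. Their differences were -0.087 and -0.14, with a median of -0.11, and the spot error was 0.069. Grin3b, best known from motor neurons, had a signal of 228 for the female pool, against 218 for the male pool. Its difference of 0.093 was the only positive one among the 7 genes under the main scaling and was 1.04 times the spot error of 0.089.

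**Figure D2:**
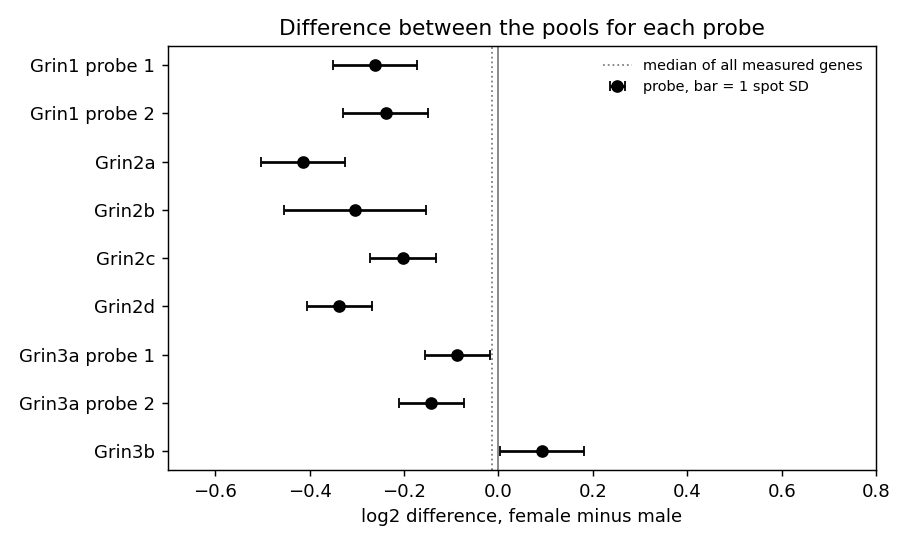
Difference between the pools for each of the 9 probes (horizontal axis, log2, female minus male), with bars of 1 spot SD for the brightness class of the probe; the dotted line is the median of all measured genes. The values run from -0.41 for Grin2a to 0.093 for Grin3b.

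None of the 7 genes reached a 2-fold difference. Among all 15562 genes 0.424% were 2-fold or more lower in the female pool and 0.109% were that much higher. At 1.5-fold 0 of the 7 were lower, where the background was 1.57%, and 0 were higher, where it was 0.9%. At a log2 difference of 0.32 or more, 2 of the 7 were lower, Grin2a and Grin2d, where the background was 5.47%, and 0 were higher, where it was 3.94%. Only Grin2a reached it with scaling by the median or quantile normalization, and only Grin2d with normexp, where Grin2a at -0.32 narrowly missed it. With spike-in scaling 6 of the 7 were higher by this size, against 95.3% of all genes. A further measure was a difference of more than 2 spot SDs, with the SD of 1 spot used for every gene. By it 5 genes were lower in the female pool, Grin1 and the 4 GluN2 genes, against 12.1% of all genes. With the brightest probe of each gene Grin3a passed it too. In that measure 0 of the 7 were higher, against 7.12% of all genes. Grin2b, at 2.02, fell within 2 spot SDs under 5 of the alternatives that measured it with the sign kept, normexp among them. With spike-in scaling 7 of 7 were higher by this measure, against 93.3% of all genes. Feature Extraction also gives its own error estimate for each spot, at most 10.4% of the signal here, which makes 0.20 to 0.21 for a log2 difference. By this wider error 5 of the 9 probes differed by more than 1 error, those of Grin1, Grin2a, Grin2b and Grin2d. Of these, 1 probe, of Grin2a, narrowly passed 2 errors. The share of all probes past this error was not computed, but 21.0% of all genes differed by 0.20 or more in either direction.

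Single values sat inside the spread of all genes. The Grin2a difference was matched or passed on the negative side by 3.41% of the 15562 genes, the Grin2d difference by 5.02% and the Grin2b difference by 5.92%. For Grin1 that share was 8.47%, for Grin2c 11.9% and for Grin3a 23.7%. Spread depends on brightness, so each gene was also set within its own class. Of 7368 bright genes, 1.94% had a difference at or below that of Grin2d, 6.23% at or below that of Grin2c and 17.1% at or below that of Grin3a. Of the 3566 genes in the class 4- to 16-fold below the 75th percentile, 2.61% lay at or below Grin2a, 8.89% at or below Grin1 and 80.4% at or below Grin3b. In the next dimmer class, 8.71% of 2836 genes lay at or below Grin2b.

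**Figure D3:**
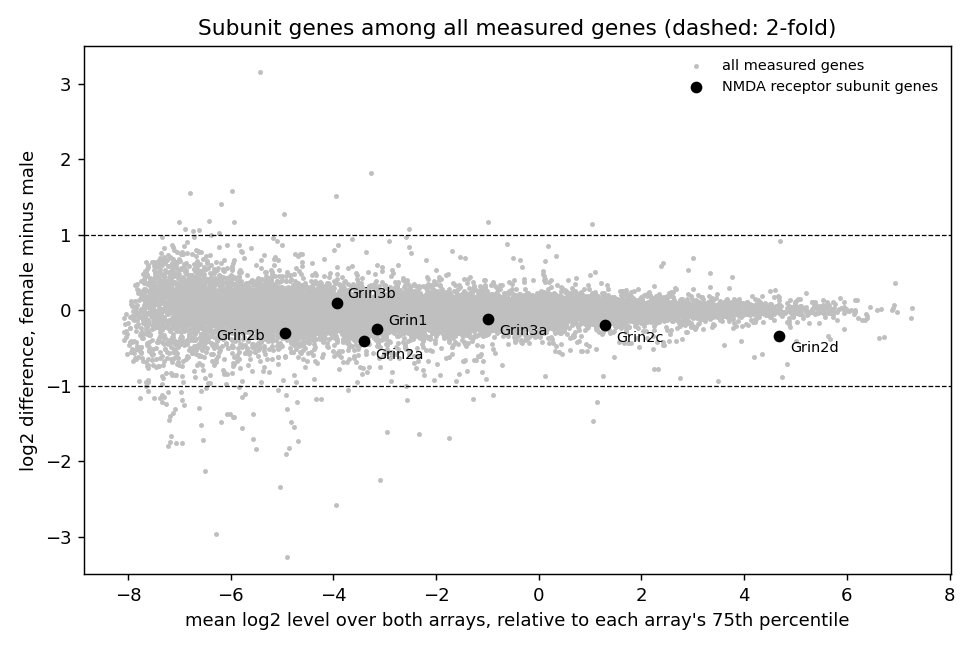
Difference between the pools (vertical axis, log2, female minus male) against the mean log2 level over both arrays relative to the 75th percentile (horizontal axis), for all 15562 measured genes (grey) and the 7 NMDA receptor subunit genes (black); dashed lines mark 2-fold. All 7 lie between the dashed lines, and the grey cloud is narrower towards bright genes, where Grin2d lies.

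The median over the 7 genes was -0.25 with 6 of 7 negative, against a median of -0.014 with 54.3% negative over all genes. The sign depends on the scaling: with spike-in RNA as the standard, which moves the median of all genes to 0.66, the 7 differences ran from 0.26 for Grin2a to 0.76 for Grin3b and all were positive. Spike-in scaling adds the same amount to every gene, so values relative to the median of all genes cannot change with it. Relative to that median, the median of the 7 was -0.24 under both scalings, and 6 of 7 genes lay below it. The relative median ran from -0.16 with normexp background correction to -0.24 over the settings that kept at least 5 of the 7 genes. Settings that only scale each array by 1 factor leave it fixed.

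Differences between subunits do not depend on a factor per array, since it cancels. Of the 21 pairs of genes, 8 differed from each other by more than 2 spot SDs of the pair, and 6 of those 8 held Grin3b. The 21 pairs reuse the same 7 values, so those 6 all rest on the 1 Grin3b spot of each array. For Grin1 and Grin3a, with 2 spots each, the pair SD uses the smaller SD of a mean, 0.063 and 0.049. The narrowest of the 8 was Grin3a with Grin3b, at 2.04 SDs. The share among pairs of all measured genes was not computed. By the different measure for single genes, 12.1% were more than 2 spot SDs lower in the female pool and 7.12% were that much higher. The widest pair was Grin2a against Grin3b at -0.51, with a spot SD of 0.13. Set against the obligatory subunit, Grin2a stood at -0.16 and Grin2d at -0.087 relative to Grin1, each within 2 spot SDs. Grin2b stood at -0.054 and Grin2c at 0.048 relative to Grin1, also within 2. Grin3b stood at 0.34 relative to Grin1, with a spot SD of 0.11. The remaining pairs beyond 2 were those of Grin3a with Grin2a, at -0.30 for Grin2a relative to Grin3a, and with Grin2d, at -0.22 for Grin2d relative to Grin3a.

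Base composition, brightness and array position were set beside these values. The median difference of all counted probes ran from -0.030 for probes with 50% to below 60% G and C, to 0.044 for those with 60% to below 70%. It was 0.014 over the 183 probes with at least 70%, the class of the Grin2d probe. Measured from the median of its class, the Grin2d probe was at -0.35 and the Grin2a probe at -0.40. Neighbouring spots within 10 rows and 10 columns of each of the 9 probes had median differences between -0.063, around Grin2c, and 0.017, around Grin3b. Only neighbours well above background on both arrays and without an outlier flag were counted. These medians therefore cannot show a shift limited to dimmer spots. The probes of Grin2a, Grin2b and Grin2c lay in 4 of 20 horizontal bands of the array in which many dim spots were brighter on the male side; these bands carry 20.6% of the rat spots. The probes of Grin1, Grin2d, Grin3a and Grin3b lay outside those bands. The part of the bands in the values of Grin2a, Grin2b and Grin2c was not tested.

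Genes that act with the receptor were counted from 7 lists, with 92 of 98 genes measured. Of these, 60.9% had a negative difference and the median was -0.043, against 54.3% and -0.014 over all genes. At a log2 difference of 0.32 or more 2 of the 92 were lower, or 2.17%, against 5.47% of all genes, and 1 was higher, or 1.09%, against 3.94%. Those 3 are Homer3, Rest and Srr. With spike-in scaling all 7 list medians were positive. Under some other settings the medians of the scaffold, kinase, polyamine and transcription factor lists also turned positive, to at most 0.025.

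Postsynaptic scaffold genes encode the proteins that hold the receptor in the postsynaptic density. Of 15 measured, 9 were lower for the female pool, and the median was -0.058. Homer3, a scaffold that links metabotropic glutamate receptors and Shank proteins, had a signal of 175 for the female pool, against 231 for the male pool, a difference of -0.38 with a spot SD of 0.15 on a probe in the 4 bands. The other 14, among them the genes of PSD-95 and its relatives, lay within 0.32 on the log2 scale. Kinases, phosphatases and calcium effectors, the calmodulin and CaMKII genes among them, had 14 of 23 lower, with a median of -0.037 and a range from -0.20 to 0.24. Trafficking, anchoring and auxiliary genes had 10 of 14 lower, with a median of -0.058 and a range from -0.19 to 0.095.

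Among the genes that handle the receptor's ligands, the list of glycine and D-serine supply also holds genes of uptake and breakdown. Of its 15 measured genes, 5 had negative and 10 had positive differences, with a median of 0.028. Srr encodes serine racemase, which makes D-serine. Its signal was 786 for the female pool, against 476 for the male pool, a difference of 0.75 with a spot SD of 0.089, on 1 spot outside the 4 bands. It lay between 0.72 and 0.78 under the alternatives other than spike-in scaling, which gave 1.42. This was the largest difference among the 92 measured genes of the 7 lists and opposite in sign to that of Grin1 under the main scaling. The kynurenine pathway, which yields the agonist quinolinic acid and the antagonist kynurenic acid, had 5 of 8 measured genes lower, with a median of -0.062 and a range from -0.24 to 0.24. Polyamine genes, whose products modulate GluN2B receptors, had 9 of 10 lower, with a median of -0.026 and a range from -0.16 to 0.059.

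Of 8 listed transcription factors with reported action on NMDA receptor genes, 7 were measured, 4 of them with a negative difference, and the median was -0.038. Rest encodes a repressor of neuronal genes, with Grin1 among its known targets. Its signal was 86.1 for the female pool, against 119 for the male pool, a difference of -0.45 with a spot SD of 0.15, which was -0.26 with normexp and 0.22 with spike-in scaling. The remaining 6 lay within 0.32 on the log2 scale.

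**Figure D4:**
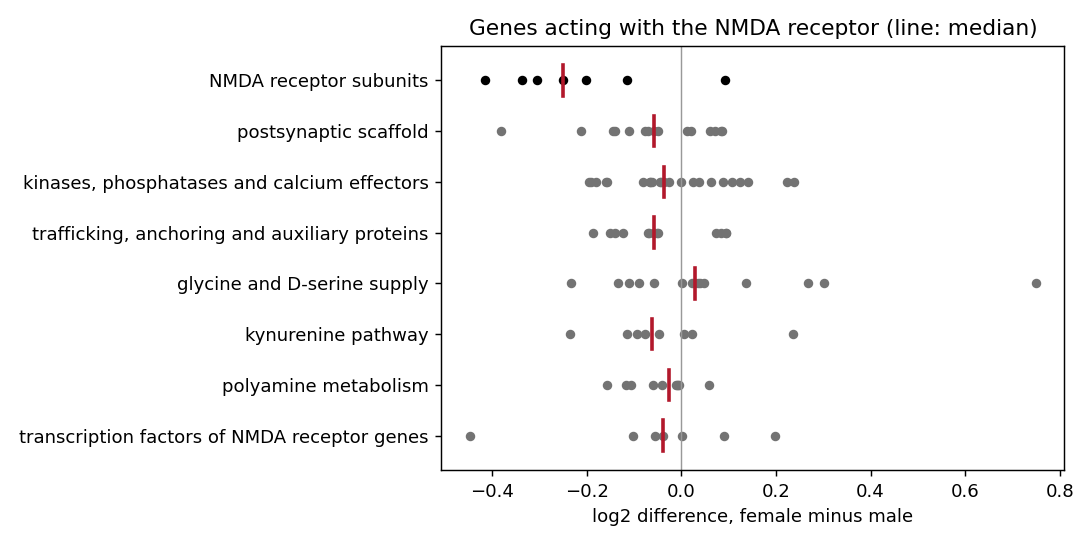
Difference between the pools (horizontal axis, log2, female minus male) for each measured gene of the 7 NMDA receptor subunit genes (black, top row) and of 7 lists of genes acting with the receptor (grey); the vertical bar in each row is the median. The subunit median is -0.25 and the list medians lie between -0.062 and 0.028, with Srr at 0.75 as the point farthest to the right.

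Markers of the cells that carry NMDA receptors were counted next. Neuron genes had a median of -0.0072 over 11 measured genes, with 6 lower in the female pool and a range from -0.16 for Nefl to 0.24 for Snap25. The list for NTS neurons had a median of 0.026 over 7 genes, 3 lower and 4 higher in the female pool, with Lmx1b, a dorsal hindbrain factor, at 0.23 and Prlh, a peptide gene of NTS noradrenergic neurons, at 0.62. The other 5 lay between -0.090 and 0.027. All 7 were well above background on both arrays. The Prlh value rests on 1 spot in the 4 bands. Motor neuron genes, the cells best known for Grin3b, had a median of -0.038 over 8 genes, 5 lower and 3 higher, with Tbx20 at -0.49 and Chodl at 0.22, both with a spot SD of 0.33.

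The lists for the cerebellum and for astrocytes, where Grin2c is best known, gave mixed values. Cerebellar genes had a median of 0.020 over 9 genes, with Zic1 at -0.48 and Pcp2 at -0.41, 4 lower and 5 higher in the female pool. The other 7 ran from -0.15 to 0.35 and held all 5 of the higher genes. The list was not limited to granule cells, and the 2 genes named are those farthest from 0. At a log2 difference of 0.32 or more 2 of the 9 were lower and 2 higher. Gabra6, which defines cerebellar granule cells, had a signal of 2.47 for the female pool, against 3.29 for the male pool, neither of them well above background. Astrocyte genes had a median of -0.10, with 8 of 9 lower in the female pool, Gfap at -0.32 and Aqp4 at -0.26. The 3 probes of Aqp4 disagreed, with the brightest at 0.017 and the others at -0.32 and -0.26.

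Other lists had medians of both signs. Oligodendrocyte genes had a median of 0.19 over 8 genes, 2 lower and 6 higher, with Mog at 0.47 and Mobp at 0.36. Oligodendrocyte precursors, which carry NMDA receptors too, had a median of 0.14 over 5 genes, with 5 higher in the female pool, Olig1 at 0.28 and Pdgfra at 0.18. Endothelium had a median of 0.19 over 6 genes, with 6 higher, Slc2a1 at 0.26 and Cldn5 at 0.21. Microglia had a median of -0.13 over 8 genes, 5 lower and 3 higher in the female pool, with Cd68 at -0.63 and Csf1r at -0.28 and the other 6 between -0.22 and 0.13. Red blood cell genes had a median of -0.53 with 6 of 6 counted genes lower in the female pool, led by Slc4a1 at -0.85 and Ahsp at -0.81. Hba1, also listed, was not counted, though its 2 probes were well above background on both arrays. Their mean signal was 312720 for the female pool, against 346995 for the male pool. Meninges and fibroblasts gave -0.26 with 7 of 7 lower, led by Col1a2 at -0.90 and Aldh1a2 at -0.54. Choroid plexus gave -0.24 with 6 of 6 lower, led by Aqp1 at -0.61 and Otx2 at -0.37. With spike-in scaling the medians of all 12 marker lists were positive, from 0.14 to 0.86. Besides Prlh, the named markers with at least 1 spot in the 4 bands were Snap25, Nefl, Chodl, Gfap, Olig1, Pdgfra, Mobp, Slc2a1 and Aqp1. The part of cell or tissue makeup in the subunit values was not tested.

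**Figure D5:**
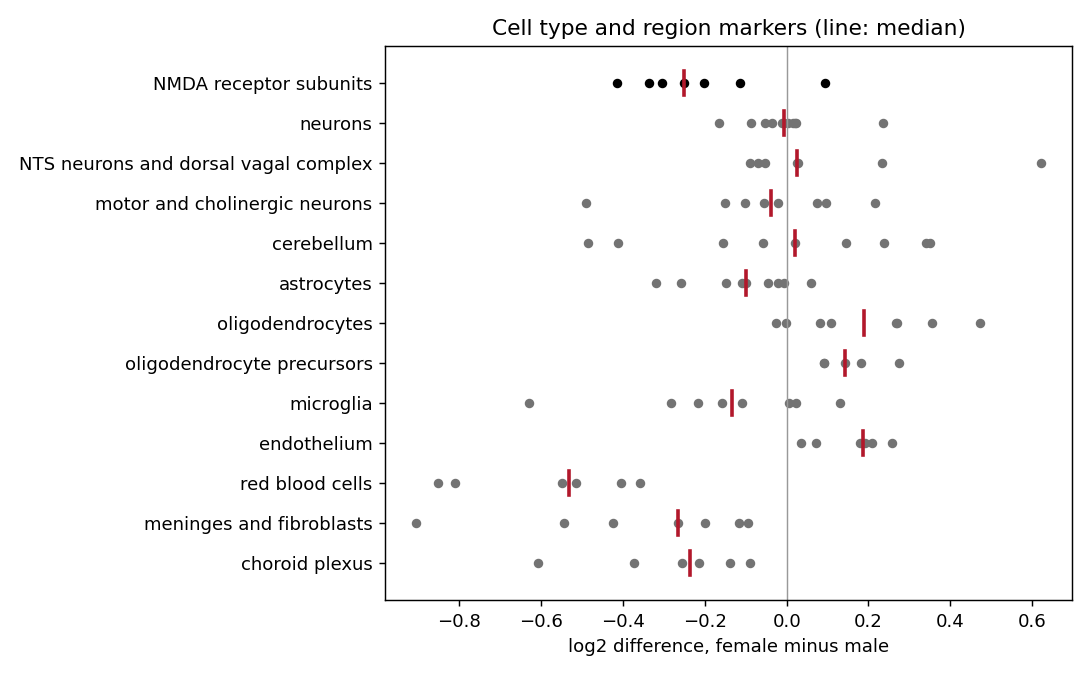
Difference between the pools (horizontal axis, log2, female minus male) for the 7 NMDA receptor subunit genes (black, top row) and for each measured gene of 12 lists of cell type and region markers (grey); the vertical bar in each row is the median. The neuron median is -0.0072, and the medians of red blood cells, meninges and choroid plexus are -0.53, -0.26 and -0.24.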

How the data were processed

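The authors deposited raw single-colour intensity files of both arrays, made with Agilent Feature Extraction 10.7.3.1 per the file headers (the submitters' processing notes name version 9.1). Per the file headers, the processed intensity is background-subtracted and detrended within an array, with no scaling between arrays. The deposited value table equals the processed intensity times 1 factor per array. Per the labels' protocols, the dissection reached 1.0 mm in front of and 0.5 mm behind the calamus scriptorius, and 150 ng of pooled RNA was labelled.

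From these, log2 processed signals were set relative to the 75th percentile over rat spots. The 430 spots with an outlier flag were left out, spots of a probe were averaged, and a gene took the median of its probes well above background on both arrays. Symbols came from RefSeq's GRCr8 table by accession for 19793 probes, and otherwise from the array files. Python 3.11.15 and limma 3.58.1 were used. The spot SD comes from probes with at least 5 spots, in 4 brightness classes. Named genes are all 7 subunits, up to 4 of each pathway list at a log2 difference of 0.32 or more, and up to 2 of each marker list. The members, lists and alternatives were chosen with earlier results of these data known. Precision is limited by the number of arrays. The steps were tested on simulated data. The sequence and position of the Grin2a probe are not reported here.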

Additional observations from a re-analysis of the deposited data

How the results depend on the processing

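Scaling by spike-ins (226 spots) shifted every gene by 0.67 towards the female pool: the subunit median became 0.42, and the list medians became 0.61 for scaffold, trafficking and kynurenine genes alike, 0.63 for kinases and for transcription factors, 0.65 for polyamine genes and 0.70 for glycine and D-serine supply. A threshold of 0.32 on the log2 scale in place of 2-fold gave 2 subunit genes. The count at 2-fold was 0 under the 12 other processing settings and at 1.5-fold. Leaving out the bands of array rows removed Grin2a, Grin2b and Grin2c and could not change the other 4. Normexp background correction gave -0.32 for Grin2a and -0.14 for Grin2b. Outside spike-in scaling, the sign of each subunit held wherever it was measured, with Grin2a between -0.41 and -0.32 and Grin3b between 0.077 and 0.14. Of 175 recomputed differences and medians 158 moved by less than 1 spot SD and 17 by more, 15 of them with spike-in scaling and 2 with normexp. Many of the 158 could hardly move. No subunit spot carried an outlier flag and all passed the background filters, so those settings left each subunit value unchanged. The deposited value table shifts all differences by the same amount. Probes brighter than the median probe left out Grin2b and Grin3b. No paired analysis was possible because each sex has 1 array. With 1 array per sex, labelling and rat-to-rat spread were not measurable.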

Other observations

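The kynurenine pathway gene Kmo, which encodes the kynurenine 3-monooxygenase on the branch to quinolinic acid, was well above background on the male array only. Its signal was 2.27 on the female array, not well above background, against 18.9 on the male array. With the female value put at the lowest signal well above background there, it was 1.93-fold lower in the female pool. With spike-in scaling that figure is 1.21-fold, and neither figure allows for the spot error of 0.33 in this dim class. Both figures rest on 1 dim spot in the 4 bands of array rows described above. Of the same pathway, Ido1, Kynu and Acmsd were not well above background on either array.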
